A study of Homo sapiens with 2 samples.

Results

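MALAT1 and NEAT1 are 2 long noncoding RNAs that stay in the nucleus and are transcribed from neighbouring genes on human chromosome 11. Their contacts with SF3B1 were taken from the deposited list of peaks by the gene number listed for each peak, with repeated rows counted once and the midpoint required to lie inside the gene. This gave 8 of the 1406 distinct intervals of the list, 6 in MALAT1 and 2 in NEAT1. The list came from HITS-CLIP, in which ultraviolet light crosslinks protein to RNA, an antibody recovers the protein, and the bound RNA is sequenced as short tags. The study had 1 group of 2 biological replicates of MDA-231-LM2 cells, a human breast cancer line selected from MDA-MB-231 for spread to the lung, with no labelled treatment, input or control library. The antibody label names SF3B1, the large subunit of the SF3b complex that holds U2 snRNP at the branch point of introns, while the extract protocol names SNRBP2. The authors pooled the tags of both replicates before calling peaks, so no value below has a replicate error and the depth of each library was unknown.

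MALAT1 is an abundant RNA of nuclear speckles, the bodies in which splicing factors are stored. It has no poly(A) tail of the usual kind: RNase P cuts its 3′ end, which is then held in a triple helix, and the piece cut off becomes the small cytoplasmic mascRNA. NEAT1 is the scaffold of paraspeckles, which lie beside speckles. Its short isoform shares the 5′ end of the long one, and only the long isoform builds paraspeckles.

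RefSeq places NEAT1 at chr11:65422798-65445540 and MALAT1 at chr11:65497738-65506516 (hg38, as for all positions), spans of 22743 and 8779 nt with 52197 nt between them. The promoter table of RefSeq (GRCh38.p14) lists 2 start sites for MALAT1, on the plus strand, and has no entry for NEAT1. The sequences at these starts are shown because they are the 5′ ends from which the intervals of MALAT1 are measured below. The 30 bases before each start are in lower case and the first 50 transcribed bases are in capitals. The stretches are chr11:65497708-65497787 and chr11:65499015-65499094.
MALAT1 start 1: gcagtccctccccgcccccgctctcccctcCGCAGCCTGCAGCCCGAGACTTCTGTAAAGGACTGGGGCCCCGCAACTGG
MALAT1 start 2: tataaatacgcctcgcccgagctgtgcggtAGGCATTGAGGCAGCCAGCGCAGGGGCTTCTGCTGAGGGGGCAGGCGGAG
The start at 65499045 lies 1307 nt downstream of the start at 65497738, and no interval overlapped either stretch. The sequences under the intervals themselves were not analysed here.

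All 6 intervals of MALAT1 lay past the midpoint of the gene span counted from the upstream start, the first only just, at 51.5%. The first 4500 nt of the span, 51.3% of it, held none. The 6 intervals then followed over 3733 nt, up to 546 nt before the end of the RefSeq span. That end lies past the mascRNA gene. Heights below are numbers of pooled tags at the top of a peak, as the authors deposited them. From 5′ to 3′, the first interval, chr11:65502238-65502288, stood 4500 to 4550 nt from the 5′ end with a height of 128 tags. The second, chr11:65503078-65503123, stood at 5340 to 5385 nt with 34 tags, and the third, chr11:65503645-65503718, at 5907 to 5980 nt with 34 tags. These formed a low stretch between taller peaks on either side.

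The fourth interval, chr11:65504366-65504427, stood at 6628 to 6689 nt with 106 tags. The fifth, chr11:65505229-65505273, stood at 7491 to 7535 nt and was the tallest of the gene with 206 tags. The sixth, chr11:65505884-65505970, stood at 8146 to 8232 nt with 35 tags. Heights thus formed 3 tall intervals of 106 to 206 tags and 3 low ones of 34 or 35 tags, with none in between, and the tall ones were the first, the fourth and the fifth. The 3 tall intervals held 81.0% of the summed height of the gene, and the tallest was 6.06 times the lowest.

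The midpoints of neighbouring intervals in MALAT1 were 581 to 854.5 nt apart, with a median of 715 nt. Measured from the downstream start, the midpoints lay at 3218 to 6882 nt. Between that start and the end of the gene span, the first interval lay before the halfway point and the others past it. The last interval ended 146 nt before the mascRNA gene at chr11:65506117-65506174, which held none. The antisense gene TALAM1, at chr11:65499312-65507432, covers all 6 positions. The intervals were listed on the plus strand, that of MALAT1, and no interval was listed on the minus strand from the start of NEAT1 to the end of MALAT1.

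Along its whole span NEAT1 had the opposite placement, with both intervals near the 5′ end. The first, chr11:65423255-65423303, stood 457 to 505 nt from the 5′ end, at 2.1% of the span, with a height of 31 tags. The second, chr11:65424621-65424664, stood at 1823 to 1866 nt, at 8.1% of the span, with 12 tags. The direction of NEAT1 was taken from the plus strand of its intervals. The 2 midpoints were 1363.5 nt apart, and the first interval was 2.58 times as tall as the second. The remaining 20876 nt, 91.8% of the span, held no listed interval, including the MIR612 gene at chr11:65444458-65444557, which lies 19793 nt further on. RefSeq gives 2 transcripts for NEAT1 and 3 for MALAT1, but the table used here has no exon or isoform ends, so the intervals were not assigned to isoforms.

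**Figure D1:**
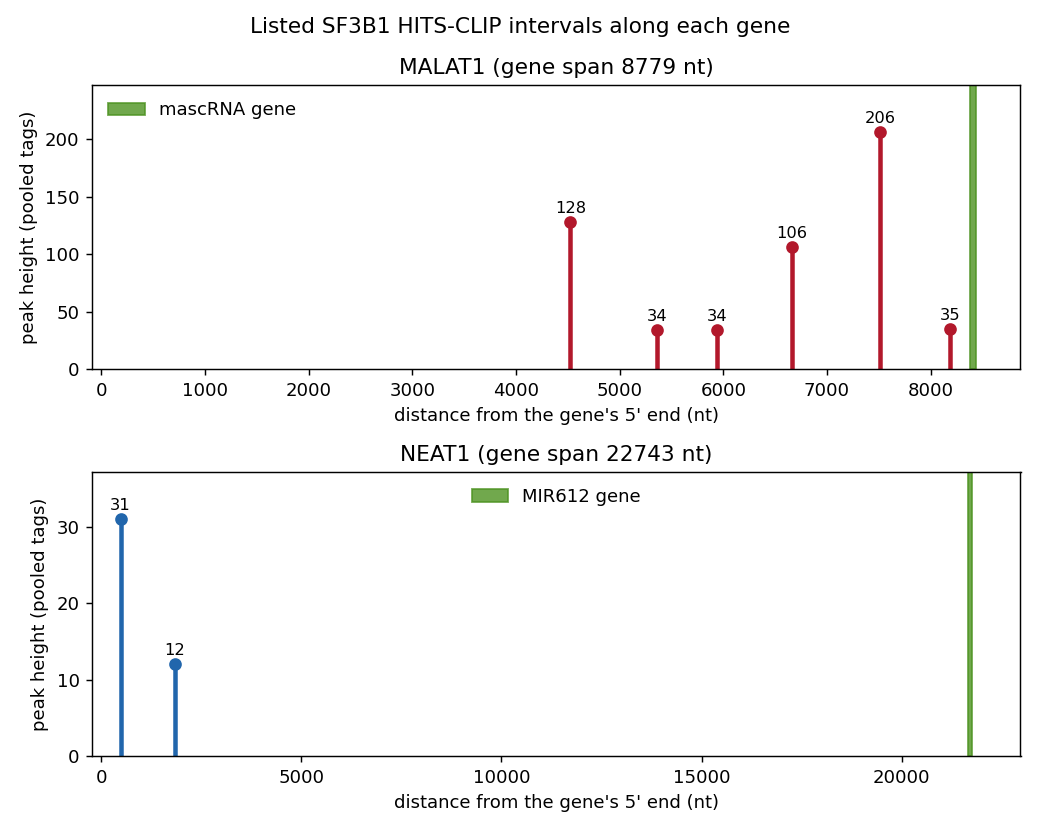
Peak height in pooled tags (vertical axis) against distance from the 5′ end of the gene in nt (horizontal axis), one stem per listed interval, with MALAT1 above and NEAT1 below. The green band is the mascRNA gene or MIR612. The 6 intervals of MALAT1 begin 4500 nt into the gene, whereas both intervals of NEAT1 lie in its first 1866 nt.

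For comparison, 67.1% of 1292 intervals whose protein-coding host spanned 3000 nt or more lay past the midpoint of their gene, against 6 of 6 in MALAT1 and 0 of 2 in NEAT1. In the same genes 5.34% of intervals lay in the first 10% of the span, against 0 of 6 in MALAT1 and 2 of 2 in NEAT1. MALAT1 thus lay on the more common side of this background and NEAT1 on the less common side. For 6 intervals, none in the first 10% is close to the background share. The background positions are along whole gene spans, introns included. Those of MALAT1 count from its upstream start, and from the downstream start its first interval would fall before the midpoint. Those of NEAT1 run along its whole span, not along its short isoform. With 6 and 2 intervals no test was made.

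The heights of MALAT1 were among the greatest of the list. Its 3 tall intervals ranked 2, 9 and 11 of 1406, and 3 of its 6 reached 100 tags, against 0.782% of all intervals (11 of 1406). Of those 11, MALAT1 and RNR2, the mitochondrial 16S rRNA, held 3 each, and no other gene held more than 1. The interval just above the tallest of MALAT1, at 248 tags, was listed under WDR74 and lay inside RNU2-2, a U2 snRNA gene. Just below it came RMRP, the RNA of RNase MRP, with 203 tags, and RNR2 with 195 and 173. The 3 low intervals of MALAT1 ranked 44 to 46, above the median of the list, 7 tags.

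NEAT1 stood lower. Its taller interval ranked 55, level at 31 tags with intervals of AXL, a receptor tyrosine kinase, of HMGA1, a chromatin protein, and of the ribosomal protein gene RPL10A. Just above it were TXLNA with 32 tags and CD59 and NOP56 with 33. Its lower interval, at 12 tags, ranked 266. At 30 tags or more stood 6 of 6 intervals of MALAT1 and 1 of 2 of NEAT1, against 4.13% of the list. For MALAT1 that comparison carries little weight. At 34 tags the authors' deposited p-value of this gene was 0.0477, close to the highest of the list, 0.0499. Much lower peaks of MALAT1 could therefore hardly enter the list.

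Per unit of length the genes differed further. The summed height was 543 tags in MALAT1 and 43 in NEAT1, 12.6 times less, over a span 2.59 times longer. This gave 61.9 tags per kb of gene in MALAT1 and 1.89 in NEAT1, and 0.683 and 0.0879 intervals per kb. Intervals covered 4.16% of the span of MALAT1 and 0.409% of that of NEAT1. Summed heights depend on how many peaks were called. The mean height per interval was 90.5 tags in MALAT1 and 21.5 in NEAT1. MALAT1 alone held 3.46% of the summed heights of the list, the largest share of any of the 1111 genes with an interval, and NEAT1 held 0.274%. Neither a transcript level nor an input library was available, so abundance and SF3B1 contact cannot be told apart.

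The order turned when each height was set against the expected height that the list gives for its gene. How the expected height and the p-value were computed is not given in the sources used here, so the ratios below describe the list and no more. The expected height was 9.69 tags for MALAT1, rank 8 of the genes with an interval, and 0.72 tags for NEAT1, rank 42. In MALAT1 the height was 13.2, 3.51, 3.51, 10.9, 21.3 and 3.61 times the expected one, from 5′ to 3′. In NEAT1 it was 43.1 and 16.7 times. The tallest interval of NEAT1 therefore exceeded its expected height by a larger factor than that of MALAT1, although MALAT1 was 6.65 times taller in tags.

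Relative to the rest of the list both genes stood at the low end of this ratio. Over the 1319 distinct intervals inside a listed gene with an expected height above 0, the median ratio was 167. The median expected height of genes with an interval was 0.04 tags, so many ratios rest on a small, rounded denominator. The intervals of MALAT1 ranked from 1252 to 1308 and those of NEAT1 1147 and 1270. A ratio of 10 or more was reached by 3 of 6 intervals of MALAT1 and 2 of 2 of NEAT1, against 98.1% of the list. The 7 genes with a higher expected height than MALAT1 were short or mitochondrial RNAs, among them RMRP (81.1 tags), RN7SK (23.94) and RNU6ATAC (17.05). The tallest interval of each of the 3 was 2.5, 5.93 and 2.87 times its expected height.

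The low intervals of MALAT1 stood at the edge of the list. In the authors' deposited list the p-value was 0.0477 at 34 tags and 0.0137 at 35 tags in MALAT1, and the highest p-value of any row was 0.0499. For NEAT1 the deposited p-value was 0.00167 at 12 tags. The 3 tall intervals of MALAT1 and the taller one of NEAT1 carried 1e-100, the smallest value in the list, as did 19.1% of all intervals. The heights of both NEAT1 intervals, 31 and 12 tags, were thus under the lowest height listed in MALAT1. Positions of MALAT1 without an interval are positions without a listed peak, not positions shown to lack tags.

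**Figure D2:**
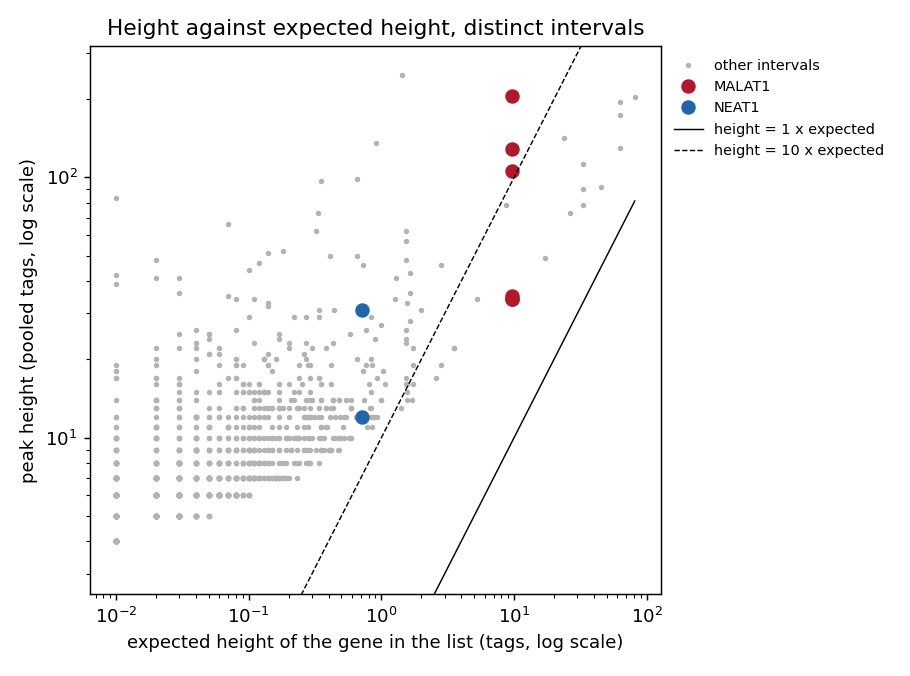
Peak height in pooled tags against the expected height that the list gives for the gene, both on log axes, for 1319 distinct intervals (grey), MALAT1 (red) and NEAT1 (blue). Lines mark a height of 1 and of 10 times the expected one. The 3 low intervals of MALAT1, at 34 and 35 tags, lie between the lines, and the other 5 intervals of both genes lie above the upper line.

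Several MALAT1 intervals were broad. Widths from 5′ to 3′ were 51, 46, 74, 62, 45 and 87 nt, against a median of 43 nt and quartiles of 42 and 44 nt in the list. At 60 nt or wider were 3 of 6, against 4.41% of all intervals and 15.5% of those of 30 tags or more. The sixth interval, at 87 nt, was the fourth widest of the list. The tallest, at 45 nt, was the narrowest of the gene, and the third and sixth were broad and low. The intervals of NEAT1 were 49 and 44 nt wide, closer to the median of the list.

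**Figure D3:**
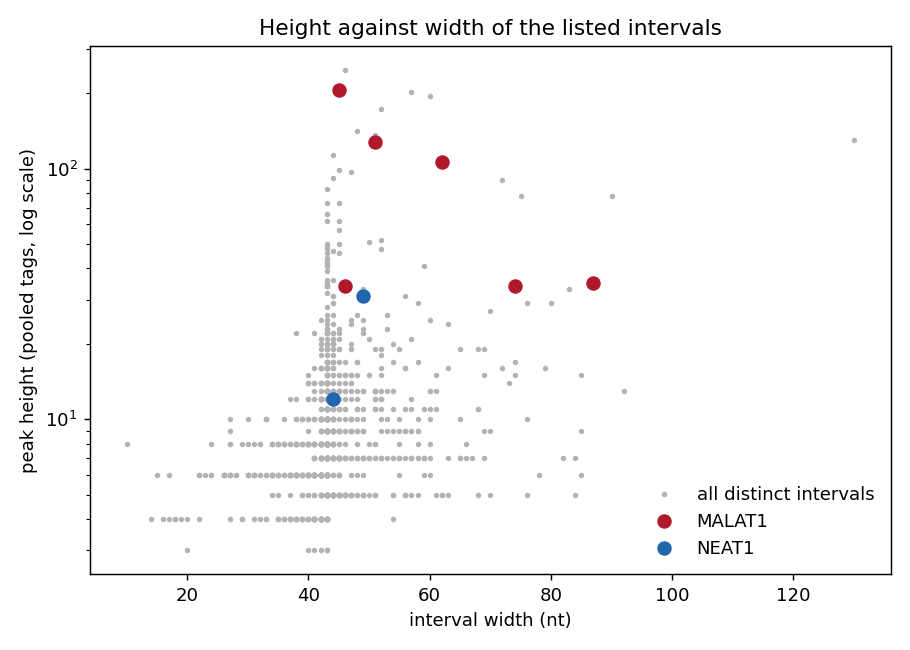
Peak height in pooled tags (log axis) against interval width in nt for all 1406 distinct intervals (grey), MALAT1 (red) and NEAT1 (blue). Most intervals sit near the median width of 43 nt, whereas 3 intervals of MALAT1 lie at 62, 74 and 87 nt.

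Few genes held as many intervals as MALAT1. It was 1 of 4 genes with 6 or more, 0.36% of the 1111 genes with an interval. The others were NAV2 with 9, HNRNPH1 with 8 and LAMA5 with 6, all with longer spans and fewer intervals per kb (0.0116, 0.388 and 0.103). NEAT1, with 2, was among the 17.8% of genes with 2 or more. Among 109 other genes with an interval and a span within 1.5 times that of MALAT1, the median was 1 interval and the most was 3. In 1 of the 109, WDR74, the tallest interval was taller. Among 216 such genes around the span of NEAT1, 32 held at least 2 intervals and 10 had an interval of at least 31 tags, with a median tallest height of 7 tags.

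Genes with an expected height near that of NEAT1 offered another footing. Between 0.54 and 0.93 tags there were 25 genes, NEAT1 included, with tallest heights of 10 to 136 tags and a median of 17. In 5 of them the tallest interval exceeded that of NEAT1: COL7A1, NDOR1, TAF12-DT, RACK1 and SRSF6. The interval listed under TAF12-DT lay at RNU11, an snRNA gene. Fewer genes were near MALAT1. Between 5 and 20 tags of expected height, the others were RNU6ATAC, RNU12 and RPPH1, with 1 interval each of 49, 78 and 34 tags.

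The profiles most like each gene were found by Euclidean distance over log2 tallest height, log2 of its ratio to the expected height and log2 number of intervals, across 1065 genes of the pooled list. Nearest to NEAT1 were DDX5, an RNA helicase (distance 0.32, 2 intervals, tallest 29 tags), NDUFV1, a complex I subunit (0.42, 26 tags), and HNRNPA2B1, an RNA-binding protein (0.70, 27 tags). MALAT1 had no neighbour as close. Its nearest were HNRNPH1 (distance 2.01, 8 intervals, tallest 62 tags), RPL13A (2.49, 3 intervals, 43 tags) and NOP56 (2.71, 4 intervals, 33 tags).

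Among long noncoding RNA genes, MALAT1 had the tallest intervals. RefSeq lists 18330 such genes, of which 40 (0.218%) held an interval. In 36 genes, 47 intervals lay outside annotated small RNA genes. The 8 intervals of MALAT1 and NEAT1 were 17% of these 47 but held 63.0% of their summed height. Most of this was MALAT1, with 543 tags in 6 intervals, against 43 tags in 2 intervals of NEAT1. The other 39 had a median of 7 tags and reached 34 tags at most, in LINC00910, which lay between MALAT1 and NEAT1 in tallest height. After NEAT1 came SNHG1 with 22 tags and SNHG29 with 16, both hosts of small nucleolar RNAs. The class includes some read-through genes such as SENP3-EIF4A1, which overlap protein-coding genes.

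**Figure D4:**
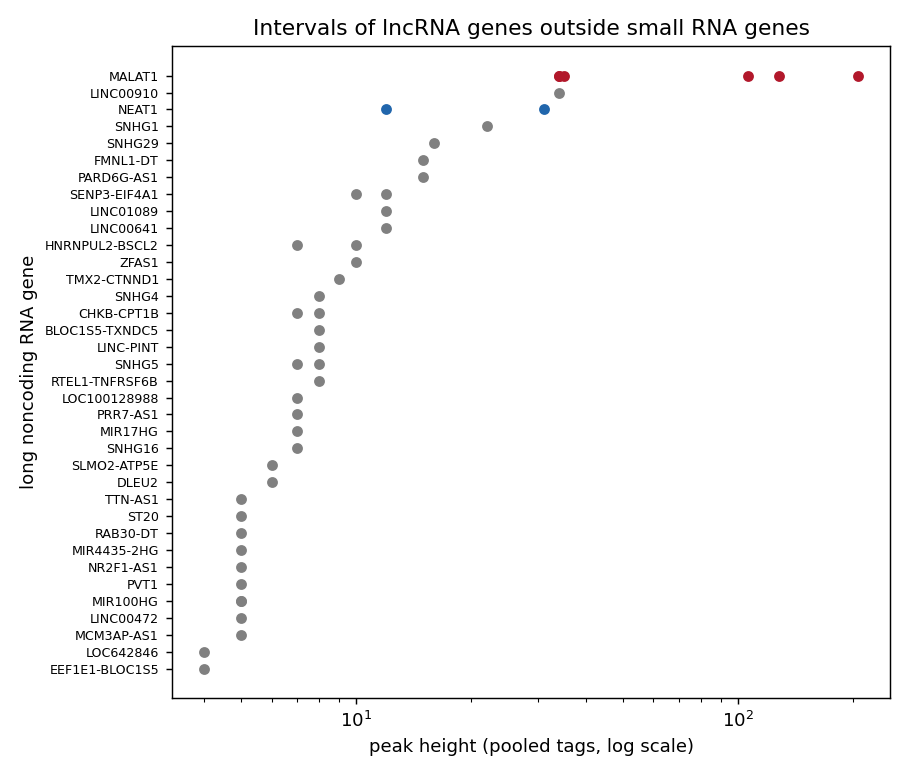
Peak height in pooled tags (log axis) of each interval outside small RNA genes, by long noncoding RNA gene, ordered by tallest interval. MALAT1 (red) spans 34 to 206 tags, NEAT1 (blue) has 12 and 31, and the other genes (grey) reach at most 34.

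Genes of the proteins that share the bodies of these RNAs were described from gene lists, chosen with earlier results of these data known. Of 28 nuclear or snoRNA-host long noncoding RNAs, 11 held an interval (39.3%), against 0.218% of all long noncoding RNA genes. Both the 28 and the 11 include MALAT1 and NEAT1, so part of that contrast was set in advance. In SNHG6 and DANCR the interval lay at a small RNA gene only. Apart from MALAT1 and NEAT1 the tallest were in SNHG29 (25 tags, at the snoRNA gene SNORD65) and SNHG1 (22 tags). Of 32 paraspeckle protein genes 16 held an interval (50%), against 5.27% of protein-coding genes, with a median tallest height of 9.5 tags. The tallest were in HNRNPH3 and NONO, a core paraspeckle protein (16 tags each), and in DAZAP1 and UBAP2L (15 each). SFPQ, the partner of NONO on NEAT1, had 8 tags. All of these were lower than the taller interval of NEAT1.

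Of 28 genes of speckle proteins and MALAT1 partners 17 held an interval (60.7%), against 5.27% of protein-coding genes. Their median tallest height was 11 tags. The tallest were in LUC7L3 (47 tags), SRSF6 (46), SRSF2 (22) and SRRM2 (17), the last a scaffold of speckles. None reached the 106 tags of the third tallest interval of MALAT1. Of 12 genes for the 3′ end of these RNAs and for mascRNA, 1 held an interval (8.33%), against 5.27% of protein-coding genes. It was RPPH1, the RNA of RNase P, the enzyme that cuts MALAT1, and its interval had 34 tags, 6.48 times the expected height. RPPH1 is not protein-coding and the protein-coding members held none, so 5.27% is not a like share. Of 15 matched genes near the locus, 1 held an interval (6.67%), near the 5.27% of protein-coding genes: POLA2, with 13 tags. FRMD8, the protein-coding gene before NEAT1, and the stretch between NEAT1 and MALAT1 held none. The levels of these transcripts were unknown, so their part in these shares was not tested.

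The labelled cell type could be checked only through genes with intervals, since no transcript level was measured. Of 20 markers, 6 held an interval (30%), against 5.27% of protein-coding genes. The tallest were in AXL (31 tags), LAMC1 (21) and VIM (18), markers of the mesenchymal-like state of this line. ANXA1 had 7 tags, and ERBB2 (6) and CDH1 (3) mark other breast cancer cells. CD44, FN1 and CAV1, on the same list and also used as markers of that state, held none. The intervals therefore do not establish the cell type.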

How the data were processed

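HITS-CLIP tags of 2 libraries were pooled by the authors into 1 peak list, so samples were neither compared nor tested. The submitters' processing notes name cutadapt 2.3, BWA 0.7.17 and the build hg38. Which program called the peaks, at which threshold and with which annotation, is not given in the sources used here. Peak height, the signal the authors deposited, is in pooled tags without normalization. The deposited text field adds a gene number, an expected height (1 value per gene in all 1191 gene numbers) and a p-value.

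Of the 1191 gene numbers, 1190 matched the RefSeq table of GRCh38.p14. Among 1587 rows, 1406 distinct intervals remained, and each was assigned where the midpoint lay in the listed gene. Ratios used intervals with an expected height above 0. Assignment was checked on simulated data. Members, lists and comparisons were chosen with earlier results of these data known; the groups of like span, like expected height and width were set after the values were seen. Named genes followed the members, the 4 tallest of each list, 3 nearest profiles and 3 neighbours in rank; any other name was picked with its values in view. Some items are not reported here. No genome was used, so the planned motif search was not run. Alternatives changed the overlap rule, duplicates, merging, reference point and denominator. Python 3.11.15, numpy 2.4.6, pandas 2.3.3 and matplotlib 3.10.9 were used.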

Additional observations from a re-analysis of the deposited data

How the results depend on the processing

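The count of 8 intervals was the same with any overlap of 1 nt, with the gene number as listed, by position alone and with rows as deposited. It was also the same after merging within 50 nt and above the median height. These last 2 settings could not change it, since gaps were 521 nt or more and heights 12 tags or more. Without its tallest interval, MALAT1 reached 128 tags and NEAT1 12. As a median over intervals, the ratio to the expected height was 7.28 in MALAT1 and 29.9 in NEAT1, so NEAT1 stayed the higher. The share of summed heights held by both genes, 3.74%, was 3.94% without the mitochondrial chromosome and rRNA genes and 4.18% among protein-coding and long noncoding hosts. The median position was 71.8% of the span in MALAT1 and 5.11% in NEAT1. It moved by less than the width of an interval when starts or ends replaced midpoints. That setting could not move it further, and the choice of MALAT1 start site was not varied. No paired analysis was possible because there was 1 group and the list pools both replicates. The pooled depth was unknown, so a position without an interval does not show that tags were absent.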
